A study of Mus musculus with 4 samples.

Results

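Barcodes with macrophage transcripts were examined in single-cell RNA-seq of unconventional αβ T cells (UTCαβ) from mouse sarcomas. A barcode was included when at least 200 genes and at most 10% mitochondrial UMIs were detected and the UMIs of C1qa, C1qb, C1qc and Lyz2 summed to at least 3, with no requirement for Cd3e, so the members were chosen by the measured counts of these 4 genes. A UMI (unique molecular identifier) marks 1 captured mRNA molecule. Of 32401 barcodes within the limits on genes and mitochondrial UMIs, from 32525 deposited, 329 met the rule and are called C1q/Lyz2 barcodes here. Of these, 83 had no UMI of Cd3d, Cd3e or Cd3g and 246 had at least 1. The libraries came from 2 Csf3r+/+ and 2 Csf3r-/- mice, all male C57BL/6J, in which sarcomas were induced by a subcutaneous injection of 3-methylcholanthrene. Csf3r encodes the receptor for G-CSF, and Csf3r-/- mice lack it in every cell and are neutropenic. Tumor leukocytes were enriched on CD45 beads and depleted of cells with CD11b, CD4 or CD8, and the sort then took TCRβ+ cells that were negative for TCRγδ, CD11b and both coreceptors, so macrophages lay outside the gate by TCRβ and CD11b. The number that ends each barcode separated the libraries, and because the labels tie this number to no animal, library 1 and library 2 are names only.

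Macrophages are tissue phagocytes of the myeloid lineage. C1qa, C1qb and C1qc encode the 3 chains of C1q, which starts the classical complement pathway and is made mainly by macrophages and some dendritic cells. Lyz2 encodes lysozyme, an antibacterial enzyme of myeloid cells, Apoe encodes a lipid carrier, and H2-Aa encodes a chain of MHC class II, which presents peptides to CD4+ T cells. The CD3 chains carry the signal of the T cell receptor and are absent from macrophages. In sarcomas, macrophages are an abundant leukocyte population and can secrete IL-12, which acts on T cells.

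The 3 C1q genes lie next to each other on mouse chromosome 4 (GRCm38), C1qb at chr4:136880129-136886187, C1qc at chr4:136889804-136893065 and C1qa at chr4:136895917-136898803, all on the minus strand. Lyz2 lies at chr10:117277331-117282321, Apoe at chr7:19696109-19699188 and H2-Aa at chr17:34282744-34287823, also on the minus strand. The promoters of C1qb (chr4:136886151-136886450, minus strand) and C1qc (chr4:136892865-136893164, minus strand) are shown because the levels of both genes were correlated among the barcodes, as given below. Each window runs 5′ to 3′ from 250 bases before to 50 bases after the RefSeq start (GRCm38.p6), with GAGGAA in capitals on either strand (TTCCTC on the other strand). GAGGAA is the core of the site bound by PU.1, the myeloid ETS factor encoded by Spi1.
C1qb: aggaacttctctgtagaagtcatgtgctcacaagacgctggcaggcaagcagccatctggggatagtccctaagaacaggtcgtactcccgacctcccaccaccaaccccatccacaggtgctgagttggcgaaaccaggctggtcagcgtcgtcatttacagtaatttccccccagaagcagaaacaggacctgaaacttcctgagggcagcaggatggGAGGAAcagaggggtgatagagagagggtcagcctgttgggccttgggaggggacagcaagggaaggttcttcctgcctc
C1qc: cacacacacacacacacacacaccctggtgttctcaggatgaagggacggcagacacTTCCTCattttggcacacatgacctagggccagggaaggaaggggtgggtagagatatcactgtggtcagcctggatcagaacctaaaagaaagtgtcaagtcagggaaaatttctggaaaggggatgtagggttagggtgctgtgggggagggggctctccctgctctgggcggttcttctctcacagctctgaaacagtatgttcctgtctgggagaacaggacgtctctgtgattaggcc
Each of both windows held 1 match, which began 30 bases before the start of C1qb and 193 bases before that of C1qc. The windows of Lyz2 and H2-Aa held none, and 28.3% of all 32851 mouse promoter windows of this length held at least 1, so a match is common.

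C1q/Lyz2 barcodes were rare and unevenly spread over the 4 libraries. There were 15 among 3588 barcodes in Csf3r+/+ library 1, 94 among 11507 in Csf3r+/+ library 2, 33 among 7169 in Csf3r-/- library 1 and 187 among 10137 in Csf3r-/- library 2. The shares were 0.418% (95% exact binomial interval 0.234 to 0.689%), 0.817% (0.661 to 0.999%), 0.460% (0.317 to 0.646%) and 1.84% (1.59 to 2.13%), where intervals cover counting error only. Csf3r-/- library 2 was high, and Csf3r-/- library 1 lay below Csf3r+/+ library 2, so the genotypes overlapped. The mean share was 0.617% ± 0.282 in Csf3r+/+ and 1.15% ± 0.979 in Csf3r-/- (SD, n = 2 each), and the difference of 0.535 percentage points was not larger than the spread between libraries (exact permutation test, two-sided, p = 0.667, with 0.33 the smallest p that 2 against 2 libraries allow, so no difference in shares could pass 0.05). Barcodes without CD3 UMIs numbered 8, 23, 8 and 44, in the same order of libraries, and barcodes with CD3 UMIs 7, 71, 25 and 143. The 2 genotype means were 0.211% and 0.273% without CD3 UMIs (exact p = 1) and 0.406% and 0.880% with them (exact permutation p = 0.667).

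The rule's threshold took in the end of a tail at low counts and barcodes spread over a wide range of higher counts, up to 1434 UMIs. A single UMI of the 4 genes was found in 100, 537, 318 and 1556 barcodes of the libraries and 2 UMIs in 15, 57, 35 and 204. Just inside the threshold, 69 barcodes had 3 UMIs, of which 62 had CD3 UMIs, with on average 16.5 UMIs of 18 T cell genes and 6 of 16 core macrophage genes. Just outside it, 311 barcodes had 2 UMIs, of which 300 had CD3 UMIs, with averages of 16.6 and 3.79 UMIs. Both sides of the threshold therefore held mainly barcodes with T cell transcripts and few macrophage transcripts. At 5, 6, 7, 8 and 9 UMIs there were 11, 8, 7, 13 and 3 barcodes, and 193 had at least 10 UMIs, of which 122 had at least 100. The members with 3 to 9 UMIs (136) and with at least 10 UMIs (193) are therefore given apart below where this is stated. The levels of the rule genes, the ranked ratios and the genotype comparisons take both together.

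**Figure D1:**
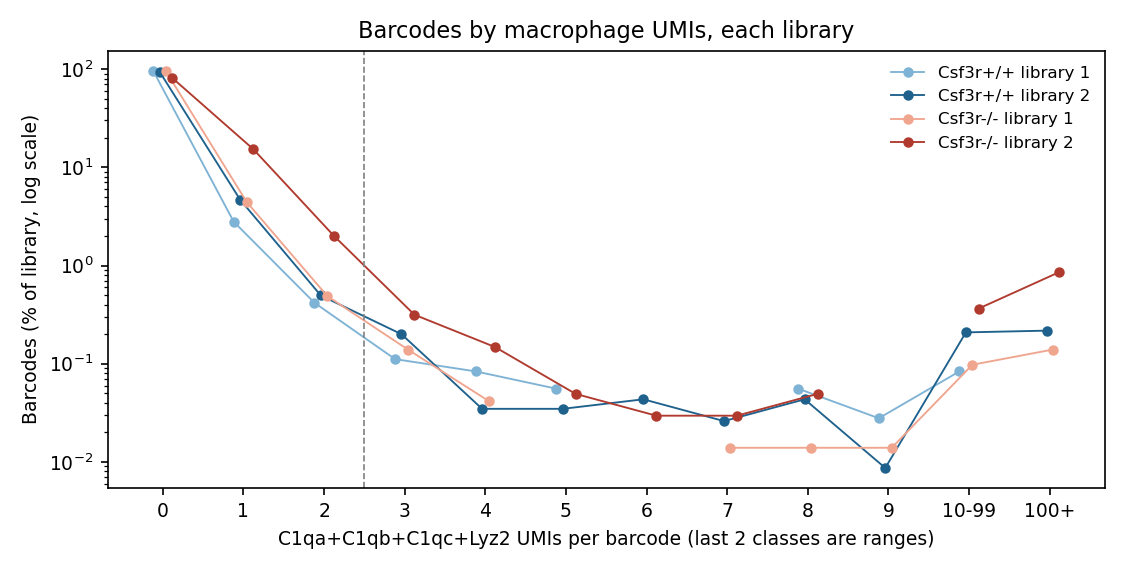
Share of the barcodes of each library (percent, log scale) by the number of C1qa, C1qb, C1qc and Lyz2 UMIs per barcode, with 1 line per library and the rule's threshold dashed. In Csf3r+/+ library 2 and both Csf3r-/- libraries the share fell from 1 UMI toward 9 UMIs, and barcodes with 10 to 99 and at least 100 UMIs (the last 2 points, which sum wider ranges than the others) made up a larger share than any single count from 5 to 9, while Csf3r+/+ library 1 had no barcode with 100 UMIs; points at 0 are not drawn.

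The markers were checked in each library before the levels were compared. In Csf3r+/+ library 1 the 15 members mostly went against the label. Csf1r, the receptor for the macrophage growth factor CSF-1, and Fcgr1, a macrophage receptor for IgG, had 0 UMIs in them, and the highest sum of the 4 rule genes was 11 UMIs. The macrophage gene Adgre1 had 0 UMIs in the members without CD3 UMIs. It had 2 UMIs, in 2 barcodes, in those with CD3 UMIs and 0 in the 3461 other barcodes with CD3 UMIs. Among its 8 members without CD3 UMIs, 4 had at least 10 UMIs of natural killer cell genes, with Klra8 at 693 CPM and Gzma at 977 CPM (counts per 1000000 UMIs summed over these barcodes), and 3 had no C1q UMI but at least 100 UMIs of MHC class II genes. Levels are therefore given per library, and groups of genes are followed without this library. The ranked ratios include it, and of the mean levels over all libraries only that of C1qa is also given without it. In the other 3 libraries, members with at least 10 rule UMIs and no CD3 UMIs had the defining macrophage genes. Csf1r was at 614 CPM in Csf3r+/+ library 2, 485 CPM in Csf3r-/- library 1 and 590.2 CPM in Csf3r-/- library 2, Adgre1, which encodes the macrophage antigen F4/80, at 262, 613 and 316 CPM, and Fcgr1 at 335, 945 and 362 CPM in the same order. In all 3 libraries these genes were near 0 in the other barcodes with CD3 UMIs, the T cells of the sort, where Csf1r reached at most 1.19 CPM. No 2 members of different libraries shared a 16-base barcode, and 10 members had a barcode that also occurred in another library, out of 490 barcodes shared by any 2 libraries.

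Members without CD3 UMIs had the following levels of the rule genes, which chose them and are given as a description. C1qa was at 61.9 and 2907 CPM in the Csf3r+/+ libraries and 8788 and 5625 CPM in the Csf3r-/- libraries. C1qb was at 74.2 and 2938 CPM in the Csf3r+/+ libraries and 7919 and 5615 CPM in the Csf3r-/- libraries. C1qc was at 12.4 and 1809 CPM in the Csf3r+/+ libraries and 4879 and 3492 CPM in the Csf3r-/- libraries, so that each C1q chain was lowest in Csf3r+/+ library 1 and highest in Csf3r-/- library 1. Lyz2 was at 408 and 7303 CPM in the Csf3r+/+ libraries and 8558 and 24686 CPM in the Csf3r-/- libraries, highest in Csf3r-/- library 2. Members with CD3 UMIs were lower on average, with C1qa at 2669 ± 2058 CPM (SD, n = 4 libraries) against 4346 ± 3732 CPM without CD3 UMIs, and Lyz2 at 5913 ± 5089 CPM against 10239 ± 10276 CPM, and in both cases the SDs overlapped. Both classes came from the same libraries. Within Csf3r+/+ library 2 and both Csf3r-/- libraries, each gene was lower with CD3 UMIs than without. In Csf3r+/+ library 1 each was higher with CD3 UMIs, from 7 against 5 C1qa UMIs and 24 against 33 Lyz2 UMIs. Without Csf3r+/+ library 1 the means of C1qa were 3509 ± 1455 CPM and 5774 ± 2943 CPM (n = 3).

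The C1q chains varied together among barcodes. Over members with at least 10 rule UMIs, Spearman's rho between C1qa and C1qb per 10000 UMIs was 0.91 in Csf3r+/+ library 2 (49 barcodes), 0.84 in Csf3r-/- library 1 (17) and 0.79 in Csf3r-/- library 2 (124), and that between C1qa and C1qc was 0.88, 0.92 and 0.86. Between C1qb and C1qc it was 0.81, 0.91 and 0.84. The sum of the C1q chains had a rho with Apoe of 0.87, 0.35 and 0.53, in Csf3r+/+ library 2 as high as among the chains. It followed Lyz2 less closely, at 0.42, 0.19 and 0.41, and MHC class II genes at 0.12, 0.39 and 0.02. Without CD3 UMIs the rho with Lyz2 was 0.11 in Csf3r+/+ library 2 (17 barcodes) and 0.006 in Csf3r-/- library 2 (40). With CD3 UMIs it was 0.67 (32 barcodes) and 0.56 (84), so the values over both classes lay between those of the classes. These barcodes share library and depth, and the values are a description. The median of summed C1q per barcode was 83.9, 142 and 158 UMIs per 10000, with the 10th percentile at 0, 50.3 and 4.59, so some barcodes with at least 10 rule UMIs had few C1q UMIs.

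**Figure D2:**
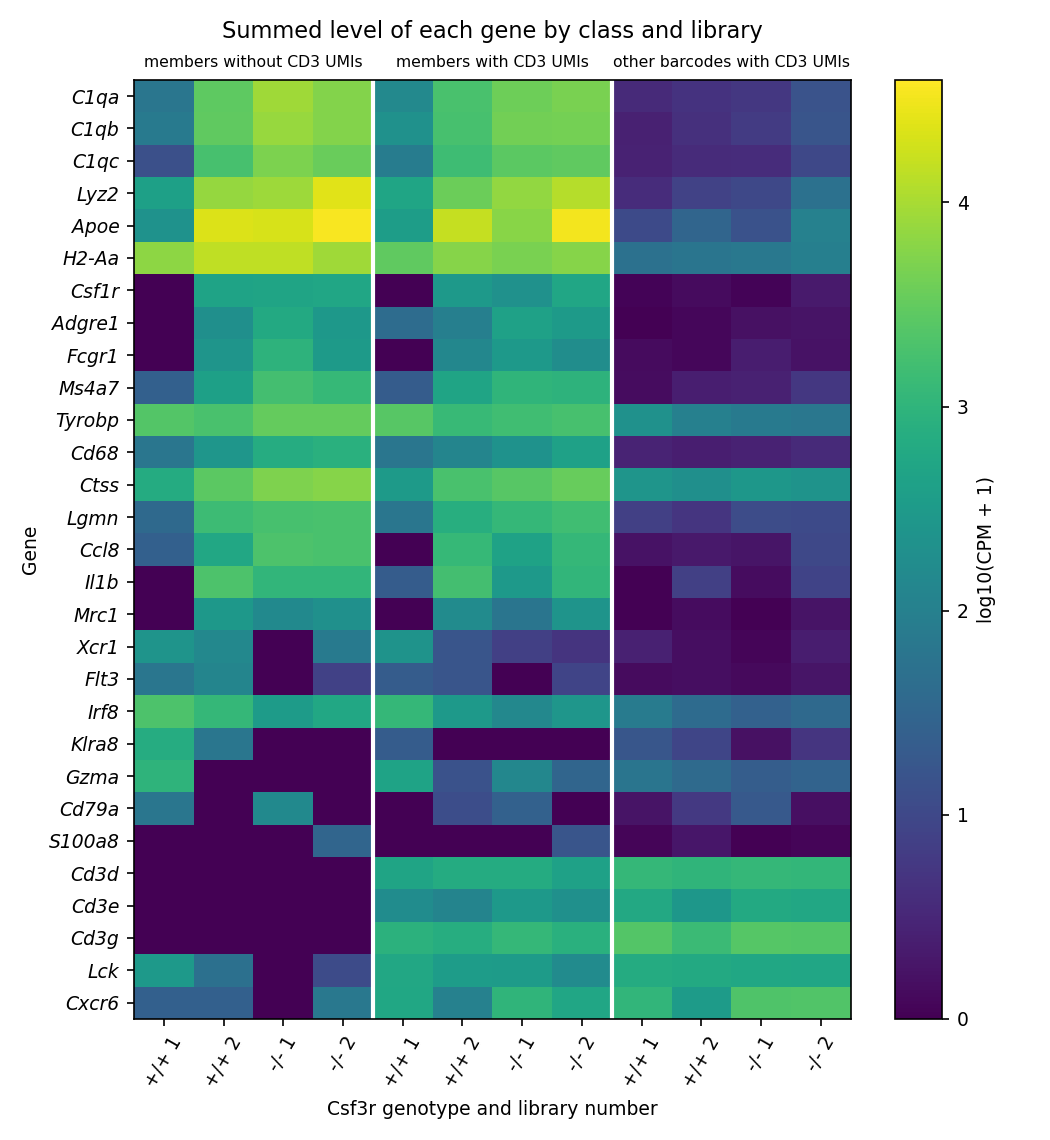
Heat map of log10(CPM + 1) of 29 named genes (rows) summed over members without CD3 UMIs, members with CD3 UMIs and other barcodes with CD3 UMIs, in each of the 4 libraries (columns). Macrophage genes were high in both member classes outside Csf3r+/+ library 1, whose column lacked Csf1r, Adgre1 and Fcgr1 without CD3 UMIs and held Klra8 and Gzma.

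The genes with the largest ratios of members to the other barcodes with CD3 UMIs were ranked among those higher in members of all 4 libraries. Of 2408 genes with at least 50 CPM on average in members without CD3 UMIs, 465 (19.3%) were higher than in the other barcodes with CD3 UMIs in 4 of 4 libraries, and 137 of them at least 10-fold. Since the rule selected these barcodes, the ratios describe them and carry no test. Apart from the rule genes, the largest mean ratio among the 465 was that of Apoe, at 482-fold, with 223 and 22438 CPM in the Csf3r+/+ libraries and 20795 and 35568 CPM in the Csf3r-/- libraries against a mean of 40.02 CPM in the other barcodes. Next were Ccl8 (293-fold), Ms4a7 (275-fold), a gene of tissue macrophages, Ccl7 (266-fold) and Ccl12 (237-fold), where Ccl8, Ccl7 and Ccl12 encode chemokines that draw monocytes. Then came the chemokine gene Pf4 (218-fold), Aif1 (218-fold), a calcium-binding protein of macrophages, the chemokine gene Ccl9 (217-fold), Tgfbi (205-fold), an extracellular matrix protein, Wfdc17 (181-fold) and the chemokine gene Cxcl16 (179-fold). The last of the 15 were Fcgr2b (169-fold), the inhibitory IgG receptor, AF251705 (163-fold), H2-Eb1 (159-fold), an MHC class II chain, and the lysosomal glycoprotein gene Cd68 (158-fold). In Csf3r+/+ library 1, Ms4a7 and Ccl8 were at 24.7 CPM and Ccl7 and Ccl9 at 12.4 CPM. Each lay below the 37.1 CPM that 3 counts make there, so these genes entered the order on very few UMIs.

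Members with CD3 UMIs were ranked in the same way. Of 2553 genes at 50 CPM, 343 (13.4%) were higher in 4 of 4 libraries and 73 at least 10-fold. After Apoe (333-fold) came Ccl7 (244-fold), Ms4a7 (205-fold), the cytokine gene Il1b (172-fold), Adgre1 (159-fold), the lectin gene Clec4a2 (138-fold), the IgG receptor gene Fcgr4 (128-fold), Trem2 (117-fold), a lipid-sensing receptor, Aif1 (112-fold) and the endocytic adaptor gene Dab2 (107-fold). In Csf3r+/+ library 1, Ccl7 was at 21.1 CPM, Ms4a7, Il1b and Trem2 had 1 UMI each and Adgre1 had 2. All lay below the 63.2 CPM that 3 counts make there, so these genes entered the order on very few UMIs. Genes higher in only 3 libraries are outside this order, among them Csf1r, which was at 0 in Csf3r+/+ library 1 and had ratios of 259-fold without and 181-fold with CD3 UMIs, and Ccl12, Pf4 and Ccl8, at 210.2, 189.5 and 179.9-fold with CD3 UMIs.

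Groups of genes were then followed in the members with at least 10 rule UMIs of the 3 libraries other than Csf3r+/+ library 1, with the other barcodes with CD3 UMIs of the same libraries beside them. As a background, of 7952 genes with at least 10 CPM in either class, 16.3% were higher and 36.6% lower in all 3 libraries in members without CD3 UMIs, with a median log2 ratio of -0.29, and 18.8% and 36.5% in members with CD3 UMIs, with a median of -0.21. Of 16 core macrophage genes, 14 were higher in all 3 libraries without CD3 UMIs (median log2 ratio 7.91) and 15 with CD3 UMIs (7.49). Among them Tyrobp and Fcer1g, signalling adaptors that natural killer cells and some UTCαβ also carry, were at 2135, 3193 and 3518 CPM and 3322, 5697 and 3830.3 CPM in the members of Csf3r+/+ library 2, Csf3r-/- library 1 and Csf3r-/- library 2, and at 98.9, 77.4 and 66.7 CPM and 477, 212 and 164 CPM in the other barcodes. Spi1, which encodes PU.1, was at 385, 741 and 461 CPM against 2.31, 1.97 and 4.15 CPM. Maf, also a T cell gene, did not differ in 1 direction, with 147, 76.6 and 148 CPM against 53.01, 240.2 and 217 CPM.

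Most MHC class II genes were high in members of these libraries. Of 9 MHC class II genes, 7 were higher in all 3 libraries in members without CD3 UMIs (median log2 ratio 6.92) and 7 in members with them (6.34). H2-Oa, which encodes a chain of the regulator H2-O, was at 89.996, 0 and 3.81 CPM without CD3 UMIs, 47.2, 0 and 9.96 CPM with them and 22.02, 22.5 and 22.99 CPM in the other barcodes. Cd74, the invariant chain, was at 21133, 32291 and 21288 CPM without CD3 UMIs and 13042, 19596 and 18485 CPM with them, against 109, 246 and 261 CPM in the other barcodes. H2-Aa was at 14784, 14664 and 8045 CPM, 8419.6, 7838 and 7041 CPM and 60.9, 68.1 and 96.98 CPM in these 3 classes. MHC class II genes were also high in Csf3r+/+ library 1, where H2-Aa was at 6582 CPM in members without CD3 UMIs, and in the members with 3 to 9 rule UMIs and no CD3 UMIs, at 12346 CPM in Csf3r+/+ library 2 and 13807 CPM in Csf3r-/- library 2.

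Lysosomal and lipid-handling genes were mostly high as well. Of 15 such genes, 11 were higher in all 3 libraries without CD3 UMIs (median log2 ratio 4.71) and 12 with them (4.40). The protease genes Ctss and Lgmn were at 3329.9, 5109 and 6496 CPM and 1849, 1814 and 2147 CPM without CD3 UMIs, and Psap, which encodes saposins for lipid degradation, was at 3706, 1890.5 and 4519 CPM. Of 8 other complement genes, 5 were higher without CD3 UMIs (median log2 ratio 5.17) and 6 with them (5.28), led by the receptor genes C3ar1 at 213, 562 and 358 CPM and C5ar1 at 65.5, 179 and 221 CPM and by Cfp, which encodes properdin, at 164, 689.8 and 141 CPM. C2 had 0 UMIs in members.

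Chemokine genes of myeloid cells were higher in 10 of 13 cases without CD3 UMIs (median log2 ratio 7.18) and 11 of 13 with them (7.02). Ccl4, a chemokine gene that T cells express too, was at 941, 1328 and 1298 CPM without CD3 UMIs and 175, 51.3 and 102 CPM in the other barcodes, and Ccl8 at 761, 2095 and 2128 CPM and 1.04, 0.846 and 9.12 CPM. Genes linked to alternative (M2) activation were higher in 4 of 10 cases in each class, among them Mrc1, the mannose receptor CD206, at 368, 153 and 228 CPM without CD3 UMIs, and Msr1, a scavenger receptor, at 98.2, 25.5 and 83.8 CPM. The M2 genes Cd163 and Retnla had 0 UMIs in members. Genes linked to classical (M1) activation were higher in 3 of 10 cases without CD3 UMIs and 4 of 10 with them. Among these, Il1b was at 2438, 1073 and 1177 CPM, highest in Csf3r+/+ library 2, and Cd86, a costimulatory ligand, at 466, 76.6 and 209 CPM, while Nos2 and Il6 had 0 UMIs in members without CD3 UMIs.

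Transcripts of IL-12 were scarce. Il12a had 0 UMIs in all 329 members, and Il12b had 1 UMI in Csf3r+/+ library 2 and 8 UMIs in Csf3r-/- library 2 among members without CD3 UMIs, and 0 among members with them. At 3 counts as the limit that a count of 0 allows, Il12a could reach 18.5 CPM in members without CD3 UMIs of Csf3r+/+ library 2, 76.6 CPM in Csf3r-/- library 1 and 10.2 CPM in Csf3r-/- library 2, so a difference between genotypes was not detectable at this depth. Csf3r itself had 3 UMIs in members without CD3 UMIs of Csf3r+/+ library 2, 0 in Csf3r-/- library 1 and 2 in Csf3r-/- library 2, and 6, 1 and 5 UMIs in members with them. A 3′ UMI does not show whether the deleted part of the gene was transcribed, so Csf3r does not check the labels here. Among genes of IFNγ response, Cxcl9 was at 8.18, 179 and 187 CPM and Cxcl10 at 49.1, 281 and 168 CPM without CD3 UMIs, both lowest in Csf3r+/+ library 2, while with CD3 UMIs they were at 214, 270.3 and 86.3 CPM and 374, 450.5 and 79.7 CPM, lowest in Csf3r-/- library 2. Of the 13 genes of the IL-12 and IFNγ axis, 2 were higher and 6 lower in all 3 libraries without CD3 UMIs, and 3 and 7 with them.

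Genes of other myeloid and stromal lineages were counted in the same way. Of 10 neutrophil genes, 0 were higher in all 3 libraries without CD3 UMIs and 1 with them, with Camp, Ngp and Retnlg at 0 UMIs in members and S100a8 at 9 UMIs in members without CD3 UMIs, all in Csf3r-/- library 2. The summed level of the 10 neutrophil genes was higher in 2 of 3 libraries without CD3 UMIs and 3 of 3 with them, at 24.5, 0 and 49.5 CPM without and 21.8, 11.3 and 49.8 CPM with CD3 UMIs against 10.4, 2.48 and 4.01 CPM in the other barcodes. Mast cell and basophil genes numbered 0 higher of 7, with Mcpt8, Fcer1a, Ms4a2, Gata2 and Cpa3 at 0 UMIs. Of 11 fibroblast and sarcoma genes, 0 were higher in either class, with Col1a1 at 8.18, 25.5 and 3.81 CPM and Pdgfra and Lum at 0 UMIs in members without CD3 UMIs. Of 12 dendritic cell genes, 4 were higher in either class (median log2 ratio 2.26 without and 2.20 with CD3 UMIs), of the 12 B cell genes in the matrix 1 was higher without CD3 UMIs and 4 with them, and of 6 red cell and platelet genes 1 was higher in either class. Of 6 endothelial genes, 0 were higher, and the endothelial genes Cdh5, Cldn5 and Kdr were at 0 UMIs in members. Monocyte genes were mixed, with 2 of 8 higher and 2 lower without CD3 UMIs. Ccr2, the receptor for CCL2, was at 835, 511 and 339 CPM in these members, Plac8 at 671, 3040.1 and 411 CPM and Ly6c2 at 131, 1890.5 and 255 CPM, both highest in Csf3r-/- library 1, and Ly6c2, which T cells also express, was at 2256, 1375 and 741 CPM in the other barcodes. F13a1 was at 147, 0 and 141 CPM. In the other barcodes with CD3 UMIs, Ccr2 had 2542, 8093 and 10195 UMIs among 37593778, 17727887 and 21921012. Relative to all UMIs, this was above the level of the members in Csf3r-/- library 2 alone. Itgam, which encodes the CD11b that the sort selected against, was at 89.996, 102 and 110.4 CPM in members without CD3 UMIs and 76.3, 158 and 158 CPM in those with them (the Ensembl gene ENSMUSG00000030786, 1 of 2 with this symbol), against 0.239, 0.169 and 0.456 CPM in the other barcodes.

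A separate set of members carried genes of dendritic cells without C1q. Of 83 members without CD3 UMIs, 17 had no C1q UMI and at least 100 UMIs of MHC class II genes, 3, 8, 0 and 6 in the 4 libraries, and 14 of them had at least 3 UMIs of 6 dendritic cell genes (Xcr1, Clec9a, Flt3, Batf3, Zbtb46 and Cd209a). They entered through Lyz2 alone. The members with 3 to 9 rule UMIs and no CD3 UMIs, also 17 in all, overlapped with this set only in part. Of them, 10 had no C1q UMI and at least 100 MHC class II UMIs, and 6 had at least 10 UMIs of natural killer cell genes. Of the 12 dendritic cell genes 6 had UMIs in this class, while Cd209a, Sirpa, Ccr7, Fscn1, Ccl22 and Siglech had 0. In members with 3 to 9 rule UMIs and no CD3 UMIs, Xcr1, the receptor of cross-presenting dendritic cells, was at 226 CPM in Csf3r+/+ library 2 and 545 CPM in Csf3r-/- library 2, Irf8, a transcription factor of these cells, at 2338 and 2210.4 CPM, and Flt3, the receptor for a dendritic cell growth factor, at 327 and 64.1 CPM, from 6 and 4 barcodes. In members with at least 10 rule UMIs and no CD3 UMIs the same genes were at 115 and 22.8 CPM, 777 and 366 CPM, and 57.3 and 0 CPM, lower in each case in both of these libraries. In Csf3r+/+ library 1 the members without CD3 UMIs went the other way. Xcr1, Irf8 and Flt3 had 14, 131 and 4 UMIs among 70518 in 7 barcodes with 3 to 9 rule UMIs. They had 5, 34 and 1 among 10312 in the 1 barcode with at least 10, a larger part for each gene. Csf3r-/- library 1 had no member with 3 to 9 rule UMIs and no CD3 UMIs. UMIs of the B cell genes Cd79a, Cd79b and Ms4a1 occurred in 13 of the 83 members without CD3 UMIs, of which 3 had at least 3 UMIs, and in 34 of the 246 with them, of which 4 had at least 3.

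Members with CD3 UMIs varied widely in their T cell transcripts. In the 3 libraries other than Csf3r+/+ library 1, 27, 11 and 87 members with at least 10 rule UMIs had 1, 2 and at least 3 CD3 UMIs. The mean count of UMIs of 18 other T cell genes was 1.85, 2.55 and 14.8 per barcode in these groups and 0.985 in the 65 members with 0. Single barcodes reached 9 such UMIs with 1 CD3 UMI, and those with at least 3 ran from 0 to 45 with a median of 12, so the groups overlapped. With at least 3 CD3 UMIs the mean was 15.7, 17.2 and 14.1 in Csf3r+/+ library 2, Csf3r-/- library 1 and Csf3r-/- library 2, beside 15.3, 14.9 and 14.8 in the other barcodes with CD3 UMIs, which were shallower. Relative to all UMIs, the T cell genes summed to 1775, 1605 and 1849.6 CPM in the former and 4598, 5896 and 6706 CPM in the latter. The core macrophage genes were at 101, 111, 99.9 and 97.3 UMIs per barcode with 0, 1, 2 and at least 3 CD3 UMIs, and at 15410, 16585, 15529.8 and 11837 CPM, over the 3 libraries together. In the single libraries they were at 88.4, 95.2 and 107 UMIs per barcode with 0 and 91.04, 137 and 96.1 with at least 3 CD3 UMIs, higher with CD3 UMIs in 2 of 3 libraries, while the CPM were 12297, 19467 and 16254 and 10308, 12843 and 12613, lower with them in 3 of 3. A single CD3 UMI was found in 21.3% of the 127 members with CD3 UMIs and at least 10 rule UMIs, against 1.34% of the 31690 other barcodes with CD3 UMIs.

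**Figure D3:**
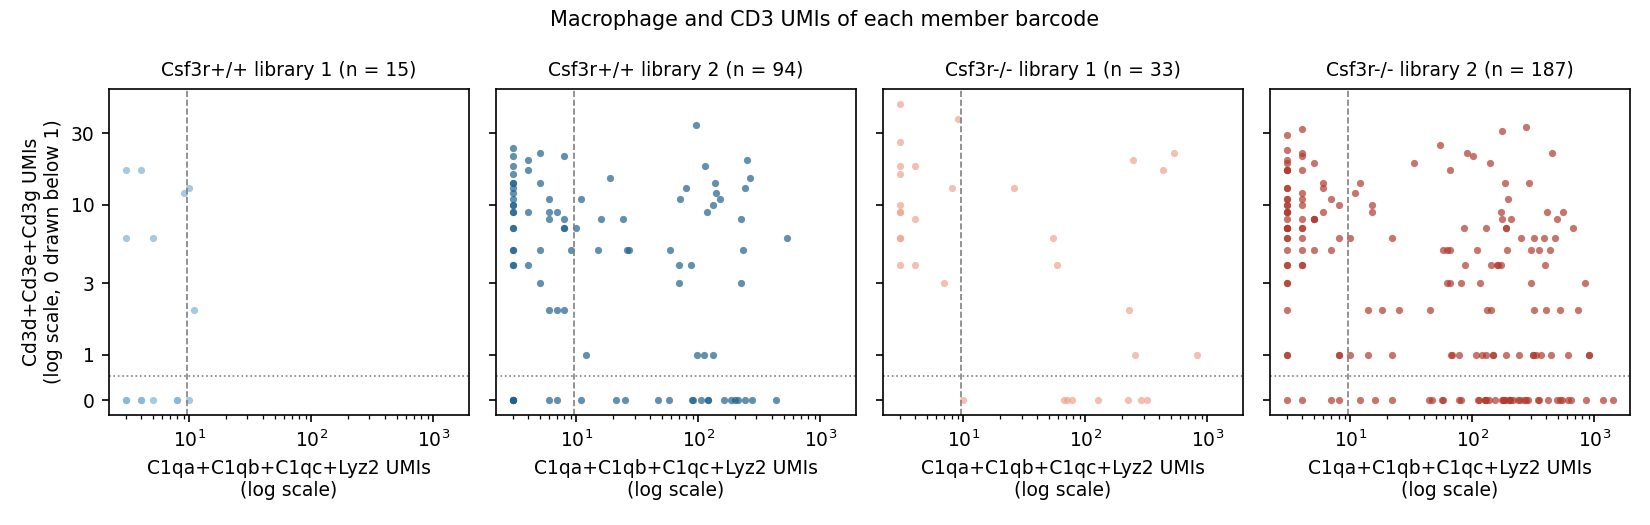
Each point is a C1q/Lyz2 barcode, placed by its C1qa, C1qb, C1qc and Lyz2 UMIs (horizontal, log scale) and its CD3 UMIs (vertical, log scale, with 0 drawn below 1), 1 panel per library, with the split at 10 rule UMIs dashed. In Csf3r+/+ library 2 and both Csf3r-/- libraries barcodes with over 100 macrophage UMIs occurred both at 0 and at 3 or more CD3 UMIs, and Csf3r+/+ library 1 had none over 11.

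The total number of UMIs was higher in members with both kinds of transcript. In the order Csf3r+/+ library 2, Csf3r-/- library 1 and Csf3r-/- library 2, members with CD3 UMIs and at least 10 rule UMIs had 8599.8, 9866 and 7169 UMIs on average, those without CD3 UMIs 7189.8, 4893 and 6566, and the other barcodes with CD3 UMIs 3323, 2527 and 2214. The first class was thus the deepest in 3 of 3 libraries, at 2.59, 3.90 and 3.24 times the depth of the other barcodes with CD3 UMIs. The mean depths of the last 2 classes summed to 10513, 7420.1 and 8780.0 UMIs, and members with CD3 UMIs reached 0.818, 1.33 and 0.817 of that sum. With at least 3 CD3 UMIs the mean depth was 8832, 10693 and 7620.3 UMIs, and over the 3 libraries it was 8222, against 6670.4 with 1 CD3 UMI and 6523 with 0. Members with CD3 UMIs and 3 to 9 rule UMIs had 4449.8, 3957 and 3048 UMIs, above the other barcodes with CD3 UMIs in each library, and 6.08, 3.81 and 3.88 UMIs of core macrophage genes. The member classes are set by UMI counts, which deeper barcodes reach more easily, so the choice of barcodes itself favored depth in them. The counts hold no label for 2 cells under 1 barcode, and whether joint capture of a macrophage and a T cell gave these barcodes was not tested.

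**Figure D4:**
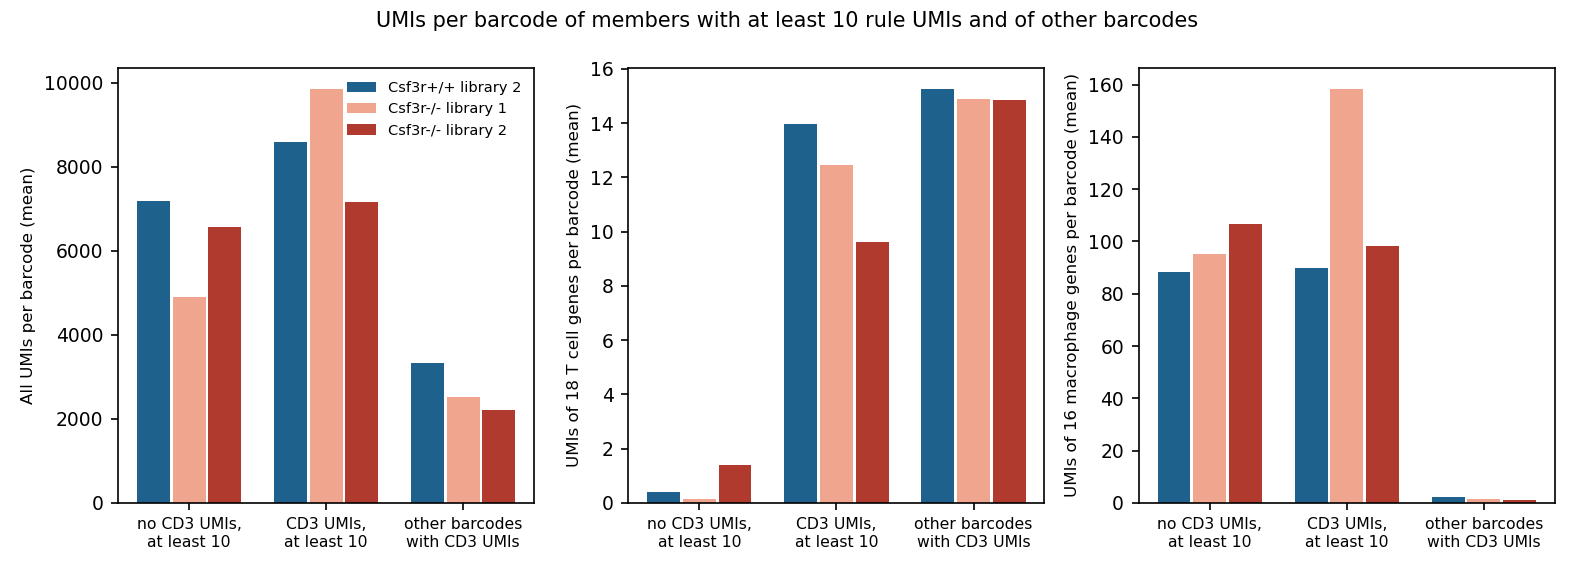
Mean UMIs per barcode of all genes (left), of 18 T cell genes (middle) and of 16 core macrophage genes (right), for members with at least 10 rule UMIs without and with CD3 UMIs and for other barcodes with CD3 UMIs, with 1 bar per library and no error bars because each bar is 1 library. Members with CD3 UMIs had the most UMIs in each library, 13.97, 12.4 and 9.62 T cell UMIs against 15.3, 14.9 and 14.8 in the other barcodes, and 89.9, 159 and 98.2 macrophage UMIs against 88.4, 95.2 and 107 without CD3 UMIs.

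Macrophage UMIs were also spread thinly over the T cells. Of the other barcodes with CD3 UMIs, 2.60, 5.13, 4.98 and 17.7% had 1 or 2 UMIs of the rule genes in Csf3r+/+ library 1, Csf3r+/+ library 2, Csf3r-/- library 1 and Csf3r-/- library 2, and their summed level was 8.72, 16.8, 21.6 and 89.1 CPM. The library with the largest share of members, Csf3r-/- library 2, had the highest such level. In Csf3r+/+ library 1, in which members had few C1q UMIs, the other barcodes with CD3 UMIs still had 30 C1qa, 19 C1qb and 20 C1qc UMIs. Barcodes without CD3 UMIs outside the rule, 382 in all, had 22.3, 14, 3.31 and 18.4% with 1 or 2 rule UMIs at medians of 5640, 2292, 1400 and 1595 UMIs, beside medians of 2955, 2755, 2113 and 1903 in the other barcodes with CD3 UMIs. In Csf3r+/+ library 2 the rule UMIs of the other barcodes with CD3 UMIs were 21.99% C1qa, 20.1% C1qb, 16.3% C1qc and 41.6% Lyz2, and those of members with CD3 UMIs and at least 10 rule UMIs 21.6%, 20.5%, 16.5% and 41.3%. Lyz2 made up 41.3% and 39.96% of the rule UMIs in these 2 classes of Csf3r-/- library 1, and 56.96% and 50.6% in Csf3r-/- library 2. Apoe UMIs per 100 rule UMIs were 185, 61.9 and 119 in the other barcodes with CD3 UMIs and 182, 33.5 and 133 in the members with CD3 UMIs, lowest in Csf3r-/- library 1 in both. In members without CD3 UMIs and at least 10 rule UMIs, Lyz2 made up 48.4, 28.4 and 62.6% of the rule UMIs. Their Apoe UMIs per 100 rule UMIs were 151, 69.0 and 90.4, in the same order of libraries. The part that free RNA had in the members with 3 to 9 rule UMIs was not tested.

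T cell genes were low in members without CD3 UMIs and intermediate in those with them. Of 18 T cell genes, 18 were lower than in the other barcodes with CD3 UMIs in all 3 libraries in members without CD3 UMIs and at least 10 rule UMIs (median log2 ratio -5.73), and 16 in those with CD3 UMIs (-1.84). Lck, the kinase of the T cell receptor, was at 239.8, 225 and 84.7 CPM in members with CD3 UMIs, 628, 549 and 527 CPM in the other barcodes and 16.4, 0 and 11.4 CPM in members without CD3 UMIs. Cxcr6, a chemokine receptor of type 3 UTCαβ, was at 103, 1006 and 520.4 CPM in all members with CD3 UMIs and 327, 2179 and 2279.6 CPM in the other barcodes, lowest in Csf3r+/+ library 2 in both. Il17a was at 11.1, 92.04 and 266 CPM and 6.996, 224 and 1341 CPM, highest in Csf3r-/- library 2 in both. Among type 1 genes, Ifng was at 185, 13.1 and 28.1 CPM and 323, 51.6 and 85.3 CPM, and Gzmb, which encodes granzyme B, at 259, 224 and 201 CPM and 986, 295 and 375 CPM. Natural killer cell genes were lower in 8 of 8 cases without CD3 UMIs and in 5 of 8 with them. Of 10 type 3 genes, 8 were lower in either class, and of 10 type 1 genes, 10 were lower without CD3 UMIs and 8 with them. The summed type 3 genes were at 1563, 1865 and 1698 CPM without CD3 UMIs and 669, 5039 and 6219 CPM in the other barcodes. This sum was thus higher without CD3 UMIs in Csf3r+/+ library 2. Only Tmem176a and Tmem176b of these genes had enough counts to be tested between genotypes in members without CD3 UMIs. Of 8 cell-cycle genes, 0 were higher in either class, and of 6 stress genes 3 were higher without CD3 UMIs and 1 with them. Of 7 genes of the sort's gates, 1 was higher and 4 lower without CD3 UMIs, and 2 and 1 with them.

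The genotypes were compared by edgeR's quasi-likelihood test on summed counts, with libraries of fewer than 20 members left out. For members without CD3 UMIs this left 1 library per genotype and no test. For members with CD3 UMIs it left Csf3r+/+ library 2 against both Csf3r-/- libraries, so the lone Csf3r+/+ library was assumed to vary like the others. Members with 3 to 9 rule UMIs were included. They made up 39 of 71 members with CD3 UMIs in Csf3r+/+ library 2, 16 of 25 in Csf3r-/- library 1 and 59 of 143 in Csf3r-/- library 2. Of 5832 genes tested, 76 passed an adjusted p of 0.05 (1.3%), 18 higher (0.309%) and 58 lower (0.995%) in Csf3r-/-. On simulated data of this design edgeR found most of the planted differences in some draws and none in others, so the number of calls at 2 against 1 libraries is unstable. With Csf3r+/+ library 1 added, 0 of 3758 genes passed (251 at an unadjusted p under 0.05, and 4 by DESeq2), or 80 of 12655 with no filter on low counts, where the 7 members of this class in the added library lacked Csf1r. With 3 libraries DESeq2 called 6. In members without CD3 UMIs and with all 4 libraries, 0 of 1667 genes passed (113 at an unadjusted p under 0.05, and 2 by DESeq2). The genotype difference in members without CD3 UMIs minus that in the other barcodes with CD3 UMIs, tested over the same 4 libraries with library as a block, was called for 29 of 10911 genes (0.266%), 19 in the direction of higher in Csf3r-/- members (0.174%) and 10 lower (0.0917%). With 1 library left out this count ranged from 8, without Csf3r-/- library 2, to 75, without Csf3r+/+ library 2.

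Among the 18 genes higher in Csf3r-/- members with CD3 UMIs were macrophage genes for which the Csf3r+/+ library was low. Gpnmb, a lysosomal glycoprotein of lipid-laden macrophages, was at 0 CPM in Csf3r+/+ library 2, 0 CPM in Csf3r-/- library 1 and 372 CPM in Csf3r-/- library 2 (log2 fold change 9.60 ± 2.23 SE, adjusted p = 0.032 in edgeR), so 1 Csf3r-/- library was at 0 like the Csf3r+/+ library. Lpl, lipoprotein lipase, was at 0 CPM in Csf3r+/+ library 2, 98.6 CPM in Csf3r-/- library 1 and 98.5 CPM in Csf3r-/- library 2 (log2 fold change 8.46 ± 1.24 SE, adjusted p = 0.0016, edgeR). Folr2, a folate receptor of tissue macrophages, was at 0 CPM in Csf3r+/+ library 2, 13.1 CPM in Csf3r-/- library 1 and 58.8 CPM in Csf3r-/- library 2 (log2 fold change 7.39 ± 1.66 SE, edgeR). The Folr2 level of Csf3r-/- library 1 came from 2 UMIs, below the 19.7 CPM that 3 counts make there. Because Csf3r+/+ library 2 was at 0 for these genes, the fitted fold changes depend on the prior count and are no bounds, and by DESeq2 the adjusted p was 0.9996 for Gpnmb, 0.9996 for Folr2 and 0.2984 for Lpl. Ccl7 was at 145 CPM in Csf3r+/+ library 2, 1492 CPM in Csf3r-/- library 1 and 877 CPM in Csf3r-/- library 2 (log2 fold change 2.90 ± 0.51 SE, adjusted p = 0.006, edgeR), with both Csf3r-/- libraries above. Of 15 lysosomal and lipid genes tested, 2 were called higher and 0 lower, and of 12 myeloid chemokine genes 1 and 0. Of 16 core macrophage genes and 8 MHC class II genes, 0 were called in either direction. Of all genes tested, 0.309% were called higher and 0.995% lower. Blk, a Src family kinase, and 5430421N21Rik were also called higher (adjusted p = 0.0035 and 0.0071, edgeR). Blk was at 126, 0, 118 and 67.8 CPM and 5430421N21Rik at 63.2, 0, 32.9 and 95.9 CPM in the 2 Csf3r+/+ and the 2 Csf3r-/- libraries, so for both genes Csf3r+/+ library 1, which the test left out, was above at least 1 Csf3r-/- library. In the other barcodes with CD3 UMIs Blk was at 84.2, 6.92, 197 and 222 CPM and 5430421N21Rik at 217, 30.6, 51.4 and 304 CPM, lowest in Csf3r+/+ library 2 as well. With Csf3r+/+ library 1 added the adjusted p was 0.939 for Blk and 0.744 for 5430421N21Rik (edgeR), and with it in place of Csf3r+/+ library 2 the log2 fold change of Blk was -0.30.

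Scand1, Sdhaf1, Rpl21-ps4 and Rpl13a-ps1 were among the 5 of the 58 lower genes with the largest fall, and each was lower in the other barcodes with CD3 UMIs of both Csf3r-/- libraries too. Scand1 was at 205, 19.7 and 14.1 CPM in members with CD3 UMIs of Csf3r+/+ library 2, Csf3r-/- library 1 and Csf3r-/- library 2, and at 177, 10.7 and 7.80 CPM in the other barcodes (edgeR log2 fold change in members -3.77 ± 0.52 SE, adjusted p = 0.0016). Rpl13a-ps1, a pseudogene whose reads can be shared with the ribosomal protein gene it copies, was at 885, 92.04 and 92.1 CPM and 1125, 149 and 177 CPM. The reads of Rpl21-ps4 are uncertain for the same reason. Plet1, the fifth, was at 57.9, 0 and 0 CPM. By DESeq2 the adjusted p was 0.271 for Scand1, 0.981 for Sdhaf1, 0.9996 for Rpl21-ps4, 0.723 for Plet1 and 0.00292 for Rpl13a-ps1, so of these 5 only Rpl13a-ps1 was called by both tools. Of 10 type 1 T cell genes tested, 4 were lower in Csf3r-/- (Xcl1, Ifng, Klrc1 and Klra7) and of 8 type 3 genes 2 were higher (Il17a and Cxcr6), beside 0.995% lower and 0.309% higher of all genes tested, in the members that carried T cell transcripts. Csf3r+/+ library 1, which the test left out, had 0 Ifng and 26 Cxcr6 UMIs among 47490 in 7 such members. Ifng was thus below both Csf3r-/- libraries, though 0 counts allow 63.2 CPM, and Cxcr6 was above Csf3r-/- library 2. Xcl1, Klrc1, Klra7 and Il17a had 52, 8, 55 and 0 UMIs there, which went with the calls. In these summed counts, fewer T cells of a type among the barcodes and fewer transcripts per cell cannot be told apart.

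Several macrophage genes were at their highest in Csf3r-/- library 2 among the 3 libraries with such barcodes. Spp1, which encodes osteopontin, was at 40.9 CPM in Csf3r+/+ library 2, 102 CPM in Csf3r-/- library 1 and 10162 CPM in Csf3r-/- library 2 in members without CD3 UMIs and at least 10 rule UMIs, from 5, 4 and 2669 UMIs. In members with CD3 UMIs it was at 29.1, 11.3 and 3221 CPM. Gpnmb was at 8.18, 0 and 1177 CPM and 0, 0 and 483 CPM in these classes, Fabp5, a fatty acid binding protein, at 172, 0 and 1066 CPM and 94.5, 0 and 488 CPM, and Trem2 at 327, 307 and 906 CPM and 207, 101 and 757 CPM. The lysosomal protease gene Ctsd was at 295, 485 and 3016 CPM without CD3 UMIs, and Cd63, a tetraspanin of lysosomes, at 777, 76.6 and 1809 CPM. Lpl was highest in Csf3r-/- library 2 without CD3 UMIs, at 49.1, 0 and 499 CPM, but in Csf3r-/- library 1 with them, at 0, 169 and 128 CPM. Csf3r-/- library 1 instead was high in Ccl7, at 1865 CPM, Ly6c2 at 1890.5 CPM, within the range of the other barcodes with CD3 UMIs, and Plac8 at 3040.1 CPM without CD3 UMIs, though from 8 barcodes. Csf3r+/+ library 2 was high in Il1b and Mgl2, a lectin, at 295 CPM against 0 and 45.7 CPM. Spp1 was also at 2747 CPM in members without CD3 UMIs of Csf3r+/+ library 1, which lacked Csf1r. These genes, apart from those named by a rule above, were chosen after their values were seen and carry no test. Csf3r-/- library 1 was below Csf3r+/+ library 2 for Fabp5, Trem2 and Cd63 in both classes. It was also below for Gpnmb and Lpl without CD3 UMIs and for Spp1 with them.

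**Figure D5:**
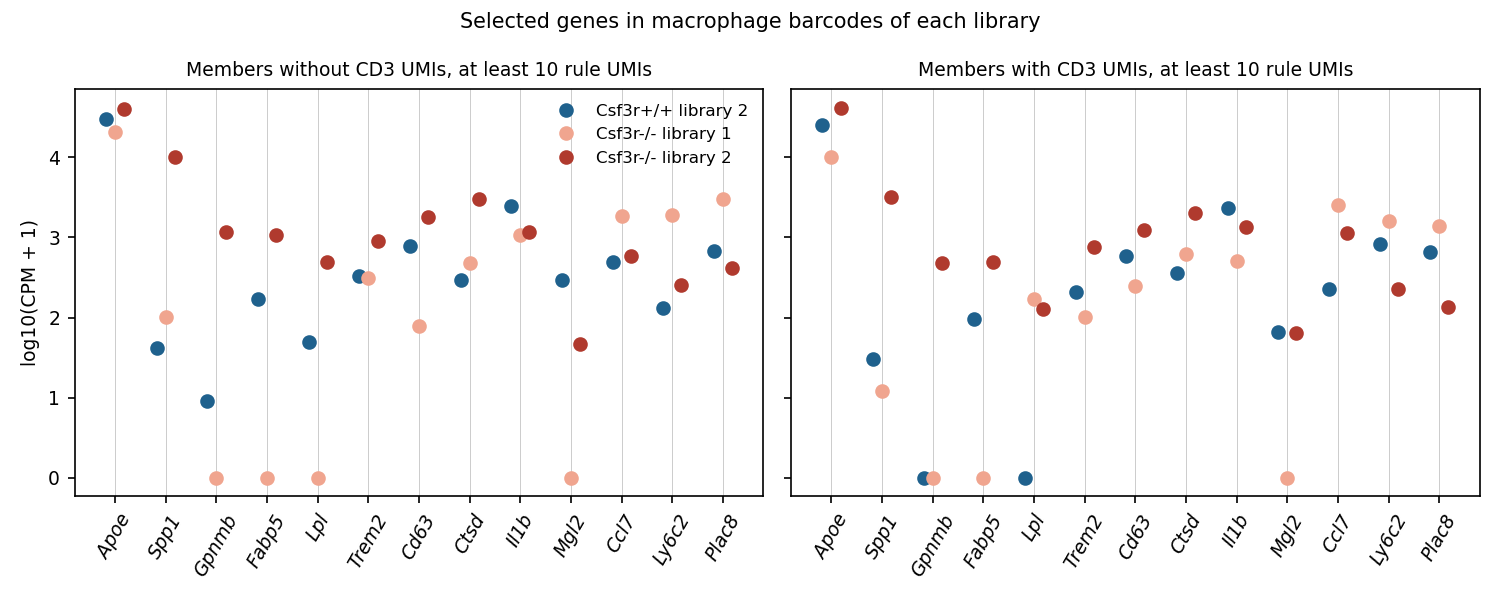
Levels of 13 genes as log10(CPM + 1) in members with at least 10 rule UMIs without CD3 UMIs (left) and with CD3 UMIs (right), with 1 point per library and no error bars because each point is 1 library. Spp1, Gpnmb and Fabp5 were high in Csf3r-/- library 2 alone in both panels, and Gpnmb and Fabp5 were at 0 in Csf3r-/- library 1; Csf3r+/+ library 1 is not drawn.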

How the data were processed

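Single-cell libraries (10x 3′ kit v2) of sorted sarcoma UTCαβ from 2 mice per genotype were used. The authors deposited raw UMI counts per gene and barcode, 1 matrix per genotype, made with Cell Ranger on mm10 without further normalization; 0 columns were left without a library. Library totals were 12483656, 38559291, 18136748 and 23234493 UMIs, which limit low genes to counting error. Per the study's methods the libraries of a genotype are biological replicates of 1 experiment, and p-values measure the spread between them. Counts were summed per library and class and given as CPM. No doublet caller was run, and no upper limits on genes or UMIs were set. Genotypes were compared with edgeR 4.0.16 (TMM, filterByExpr, quasi-likelihood, Benjamini-Hochberg) under R 4.3.3, with DESeq2 1.42.0 as an alternative, both tested on simulated data. Named genes are the rule genes, the 6 markers, up to 4 genes of each of 26 lists with the highest level, the 15 and 10 with the largest ratio (pseudocount 1 CPM, at least 50 CPM, 4 of 4 libraries), 5 calls per direction, and Csf3r, Itgam, Il12a and Il12b; genes named outside this rule were chosen after their values were seen, and some genes of the lists are not reported here. The planned test of members without CD3 UMIs could not be fitted with libraries under 20 members left out, so tests without that minimum were added. The members and lists were chosen with earlier results of these data known.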

Additional observations from a re-analysis of the deposited data

Results flagged for a closer look

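The genotype difference in members without CD3 UMIs was compared with that in the other barcodes with CD3 UMIs by an interaction term in edgeR with library as a block. All 4 libraries entered, a choice made after seeing the data. The difference itself, which is what drew attention to these genes, was called for 29 of 10911 genes (0.266%), 19 in the direction of higher in Csf3r-/- members, and for 5 by DESeq2. The interaction was 7.62 for Gpnmb, 6.12 for Atp6v0d2, a subunit of the lysosomal proton pump, 5.03 for Mfge8, a bridge for the uptake of dying cells, 4.63 for Marcksl1 and 4.47 for Lilrb4a, on the log2 scale. Gpnmb was at 0, 6.17, 0 and 1052 CPM in members without CD3 UMIs of the 2 Csf3r+/+ and the 2 Csf3r-/- libraries, Atp6v0d2 at 0, 6.17, 0 and 119 CPM and Mfge8 at 0, 6.17, 0 and 415 CPM, each mainly in Csf3r-/- library 2, and without that library the interaction of Gpnmb was -6.62 (adjusted p = 1 in edgeR). Lilrb4a was at 24.7, 111, 281 and 211 CPM and Marcksl1 at 12.4, 111, 383 and 159.9 CPM, with each lowest in Csf3r+/+ library 1. In the other barcodes with CD3 UMIs Lilrb4a was at 29.01, 35.03, 4.34 and 6.98 CPM and Marcksl1 at 11.3, 25.3, 2.59 and 3.88 CPM, lower in both Csf3r-/- libraries, which enters their interactions too.

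In the other direction, the interaction was -13.07 for Gzmc, -12.97 for Gzma, -12.32 for Zap70, -12.13 for Klre1 and -7.32 for Ifitm1 on the log2 scale, where both Csf3r-/- libraries were at 0 for the first 4 genes and the values are no bounds. Gzma was at 977, 0, 0 and 0 CPM, Klre1 at 532, 49.4, 0 and 0 CPM, Zap70 at 148, 6.17, 0 and 0 CPM, Gzmc at 396, 506, 0 and 0 CPM and Ifitm1 at 1237, 12.3, 25.5 and 3.40 CPM. Gzma, Klre1, Zap70 and Ifitm1 were highest in Csf3r+/+ library 1, whose members carried natural killer cell genes, and Gzmc was high in both Csf3r+/+ libraries. The test called 25 genes without Csf3r+/+ library 1, 75 without Csf3r+/+ library 2, 28 without Csf3r-/- library 1 and 8 without Csf3r-/- library 2.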

How the results depend on the processing

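The share of members with CD3 UMIs was higher in Csf3r-/- by 0.474 percentage points and by 1.33 with 2 rule UMIs as the minimum, 0.303 with 5, 0.310 with 10, 0.296 by the C1q genes alone and 0.291 with CD3 by Cd3e alone. The T cell list in these members moved from a log2 level of -1.02 to -1.68 with at least 10 rule UMIs. Of 270 other list levels under alternatives, 262 moved by less than 1 SD between libraries and 20 changed sign, among lists of other cell types, cell cycle and stress, with the B cell list without CD3 UMIs going from 2.49 to -1.87 when members with B cell UMIs were left out. The share of members without CD3 UMIs differed by 0.0614 points and by -0.00416 with a minimum of 2, 0.125 with 5, 0.165 with 10, 0.121 by the C1q genes alone, 0.201 thinned to 1500 UMIs and 0.244 with CD3 by Cd3e alone. When thinned, 0.0577, 0.529, 0.311 and 1.63% of barcodes were members, where 122, 345, 1053 and 1863 were too shallow. Calls between genotypes in members with CD3 UMIs numbered 76, 6 by DESeq2 and 120 without a filter. With no minimum of members they numbered 0, also with at least 5 or 10 rule UMIs, 4 by DESeq2, and 6 (Csf3r-/- library 2), 18 (Csf3r-/- library 1), 76 (Csf3r+/+ library 1) and 148 (Csf3r+/+ library 2) without the library in parentheses. In members without CD3 UMIs there were 0 calls, 2 by DESeq2, 36 without a filter and 0 to 221 with 1 library left out, highest without Csf3r+/+ library 2. The interaction gave 29 calls, 5 by DESeq2, 19 with at least 10 rule UMIs and 8 to 75 with 1 library left out. The causes were not tested. With a minimum of 20 members, the alternatives with higher rule minimums, a library left out or a replicate block left no residual spread and were not run.

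Barcode numbers are shared by the genotypes but tied to no animal. Same-numbered libraries deviated with a correlation across genes of 0.07 in members with CD3 UMIs and 0.37 in the other barcodes. A replicate block with no minimum of members gave 0 calls in either class, and within numbers 1 and 2 the share of members differed by 0.0423 and 1.03 points.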
